A study of Saccharomyces cerevisiae with 3 samples.

Results

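Sites where a reporter mRNA ends were compared between 2 kinds of ribosome block: a run of 12 CGA codons, which is decoded slowly, and a stem loop, a folded RNA structure. The comparison used 2 of the 3 libraries of the series, 1 library per reporter, taken by the reporter named in the labels. The region described ran from position 606 to position 1069, 464 positions in all. Each value is a share of all ends listed for that library, and a position missing from a table was counted as 0.

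All groups were BY4741, a laboratory strain of the budding yeast Saccharomyces cerevisiae, and all lacked SKI2. No library came from a strain with SKI2 intact. The strains expressed a PGK1 reporter that carried (CGA)12 in 1 group and a stem loop in the other. Another reporter, with (AAA)12, is used below for reference at some of the values. Cultures received no treatment and were harvested at an optical density of about 0.8 in uracil-free medium, with raffinose and galactose at 2% each as carbon sources. PGK1 (YCR012W) encodes phosphoglycerate kinase and lies at positions 137746 to 138996 of chromosome III in the R64 assembly, a length of 1251 nt. The reads cover the reporter alone, so the loss of SKI2 could not be checked in them.

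When a ribosome halts on an mRNA, following ribosomes run into it, and the collision marks the mRNA for no-go decay, in which the mRNA is cut near the stalled ribosomes. The piece upstream of a cut is normally degraded from its new 3' end by the cytoplasmic exosome, which needs the Ski complex, with Ski2 as its RNA helicase. Such pieces persist in cells without Ski2, and their 3' ends can then be mapped. CGA is an arginine codon read in yeast by a tRNA with inosine at the wobble base, a pairing that slows decoding. A stem loop halts the ribosome by blocking its path along the mRNA.

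The CGA library held 7282449 ends and the stem-loop library 4870458. The region contained 99.97% of the CGA ends and 99.75% of the stem-loop ends. All 352 positions from 606 to 957 were listed in both tables, with at least 237 ends in the CGA library (position 803) and at least 195 in the stem-loop library (position 665). From position 958 to 1069, 16 positions had fewer than 10 CGA ends, 7 of them unlisted, and none was unlisted in the stem-loop table. A count of 0 in the CGA library allows a share of up to 4.1e-05%. There were no replicates, so no test, SD or p-value is given, and the 95% intervals cover the counting error of reads only. Whether copies of 1 molecule were removed is not stated. If they were counted separately, even those intervals are too narrow for molecules.

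Position 958 is used as the boundary. It is the row beside which the authors' deposited table for CGA notes a sum of 17819 ends from there on. The CGA run was assumed to start there, and it would then reach position 993. Neither the labels nor the tables used here place the stem loop. Positions before 958 are treated as the same PGK1 nucleotides in both reporters. From 958 on, the same number need not be the same nucleotide, and differences there are differences in position only.

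The stem-loop ends reached further along the mRNA and were spread over more positions than the CGA ends. Within the region the CGA ends had their 5th, 25th, 50th, 75th and 95th percentiles at positions 666, 751, 824, 877 and 916. The same percentiles of the stem-loop ends lay at 679, 785, 877, 923 and 1008. The stem-loop value was the higher at each, by 13 nt at the 5th percentile, 53 nt at the 50th and 92 nt at the 95th. The span from the 10th to the 90th percentile measured 216 nt for CGA and 276 nt for the stem loop. Counting error did not move the CGA median (824 to 824) and moved the stem-loop median by at most 1 nt (877 to 878).

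Part of this gap came from the ends at and past position 958, which were nearly all in the stem-loop library. With only the ends from 606 to 957 counted, the stem-loop median was 859, and the CGA median stayed at 824. The gap was then 35 nt at the median, 1 nt at the 5th percentile and 30 nt at the 95th. The AAA median over these positions was 856, next to that of the stem loop.

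The effective number of positions measures how evenly ends are spread: it is the number of equally filled positions that would give the same entropy. It came to 207.3 (interval 207.2 to 207.5) for CGA and 278.7 (278.5 to 279.0) for the stem loop. From 606 to 957 it was 205.0 and 223.3, so most of that difference rested on the stem-loop ends past the boundary. In the CGA library 51 positions were enough to hold 50% of the region's ends, against 74 in the stem-loop library.

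**Figure D1:**
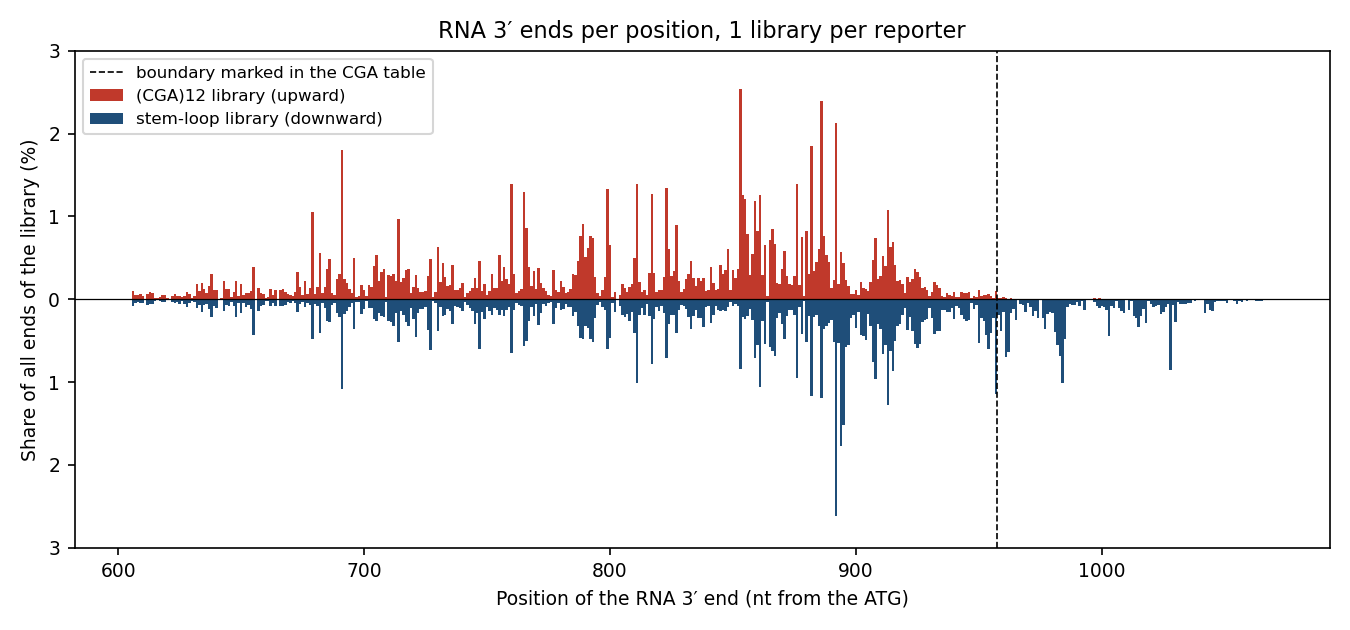
Share of all ends of a library (%, vertical) at each position from 606 to 1069 (nt from the ATG, horizontal), with the (CGA)12 library drawn upward and the stem-loop library downward; the dashed line is the boundary at 958. CGA ends nearly stop before the line (0.216% of ends lie past it), while 14.7% of the stem-loop ends lie past it.

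The cumulative shares showed where the libraries parted. They differed most at position 889, by which point 84.4% of the region's CGA ends but only 55.2% of its stem-loop ends had been passed, a gap of 29.2 points. Over the ends from 606 to 957 alone the largest gap was at the same position and came to 19.8 points. In all, 31.1% of the region's ends (31.07 to 31.18) would have to be moved to turn 1 profile into the other.

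**Figure D2:**
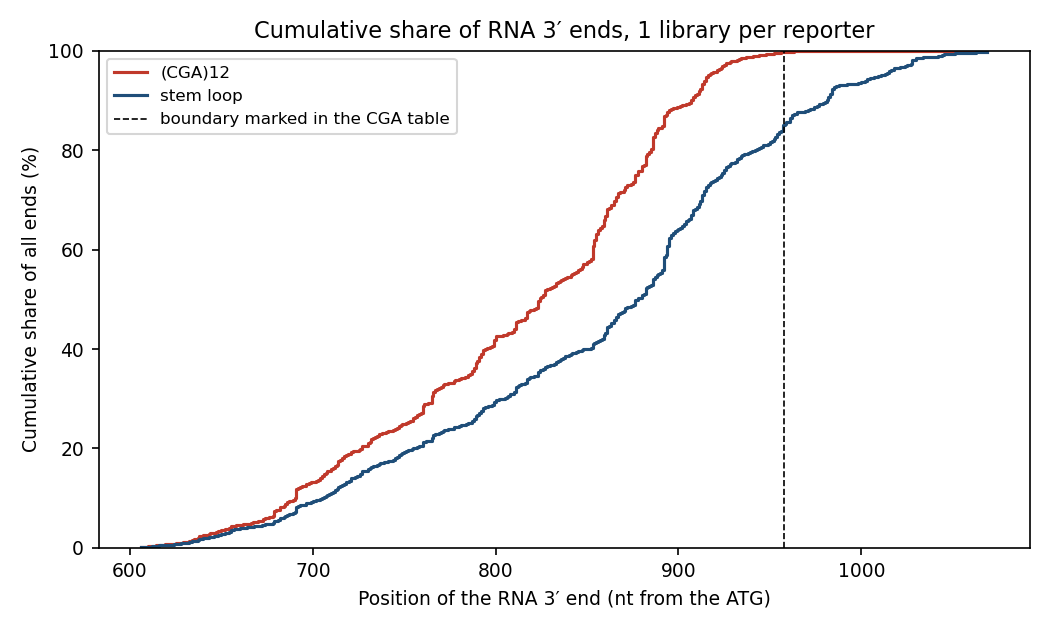
Cumulative share of all ends (%, vertical) by position (nt from the ATG, horizontal) in the (CGA)12 and stem-loop libraries. The CGA curve lies above the stem-loop curve, with medians at 824 and 877 and the widest gap at 889.

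The first contrast was depletion of CGA ends next to the boundary. The 30 nt from 928 to 957 held 156375 CGA ends, or 2.15%, and 395786 stem-loop ends, or 8.13%. CGA over stem loop was -1.92 on the log2 scale there, which is a stem-loop share 3.78 times the CGA share. Of these 30 positions, 29 were at least 2-fold lower in the CGA library. The background for that count is 12.2% of the 344 tested positions before 958, where tested means a mean share of at least 0.01% over both libraries.

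The CGA share fell further behind the stem-loop share toward the boundary. In steps of 10 nt, the CGA share was 1.07% from 928 to 937, 0.555% from 938 to 947 and 0.527% from 948 to 957. In the same steps the stem-loop share was 2.43%, 1.68% and 4.02%. The log2 ratio thus went from -1.19 through -1.60 to -2.93. In the last step the stem-loop share was larger than in the step before, while the CGA share was little changed. The AAA library, which has a codon run after the same boundary if the constructs are alike, held 4.14%, 4.13% and 1.73% in these steps. Up to 947 its shares were above those of both other libraries, and from 948 to 957 its share lay between them.

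Position 957, the last before the boundary, held 7129 CGA ends (0.0979%) and 55825 stem-loop ends (1.15%), and it ranked 238 by number of CGA ends and 7 by number of stem-loop ends. The log2 ratio was -3.55, the lowest of the tested positions before 958. Yet position 957 stood out from the mean of the 10 positions on each side, at 3.50 times in the CGA and 4.12 times in the stem-loop library. The 10 positions after it lie past the boundary. CGA ends averaged 828.8 per nt there, against 3838 from 948 to 957. The stem-loop averages were 12903.5 and 19563.6. The drop past the boundary thus lowers the CGA mean more, and the 2 values are not alike in what they measure. Position 954 held 4712 CGA ends (0.0647%) and 28998 stem-loop ends (0.595%).

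From the boundary on the contrast was largest. Positions 958 to 1069 held 15729 CGA ends, or 0.216% (0.213 to 0.219), and 717597 stem-loop ends, or 14.7% (14.70 to 14.77). Of the 84 tested positions there, 83 (98.8%) were at least 2-fold lower in the CGA library and 0 were at least 2-fold higher. The exception, position 997, held 1508 CGA ends and 1708 stem-loop ends, at log2 -0.76. Testing went by the mean share of both libraries, so with few CGA ends these positions passed mainly through their stem-loop share. That rule favours lower CGA values, and the count of 83 adds little to the summed shares. With no minimum share, 39 positions of the whole region were past 2-fold higher and 152 lower.

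Within the length of the CGA run the few CGA ends thinned out, steeply over the first 4 codons and less evenly after them. Over positions 958 to 993 they numbered 9710. The first 4 codons held 5148, 2172, 805 and 491 ends in turn, and the fifth held 283. The sixth to the tenth codons held 318, 166, 101, 134 and 89, and the eleventh and twelfth held 1 and 2. Ends in the run were thus most frequent at its start, and ends in the last 2 codons were nearly absent. The sources used here do not say how reads that end inside a run of identical codons were aligned. The stem-loop library held between 8208 and 108919 ends in each of these 3-nt steps, with no such decline.

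**Figure D3:**
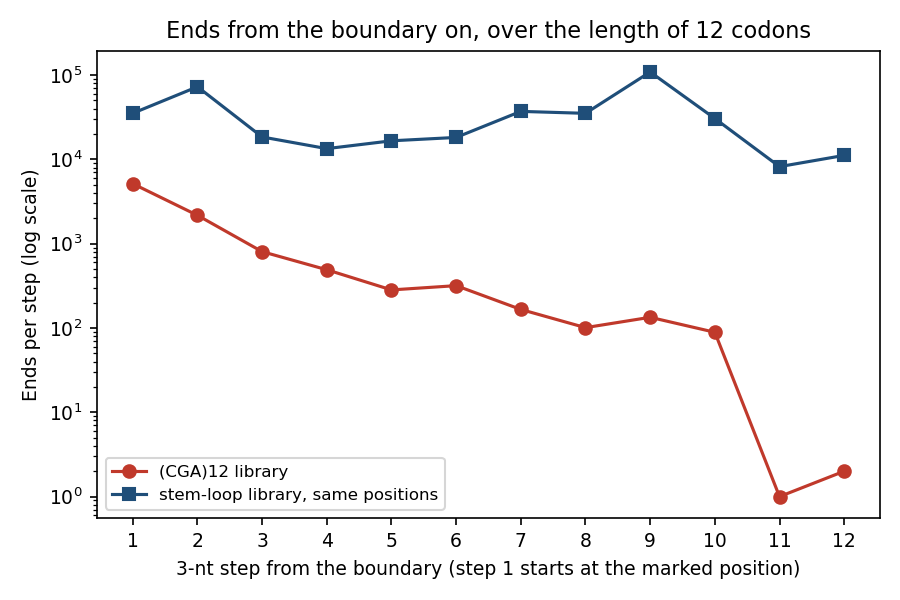
Ends in each of the 12 steps of 3 nt from position 958 on (ends per step on a log scale, vertical; step, horizontal) in the (CGA)12 and stem-loop libraries. CGA ends go from 5148 in the first step to 1 and 2 in the last steps, while each stem-loop step holds at least 8208.

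The stem-loop ends past 958 were spread up to position 1047, with some positions well above the rest. The window 958 to 987 held 7.94% of stem-loop ends, 988 to 1017 held 3.24%, 1018 to 1047 held 3.15% and 1048 to 1069 held 0.401%. The CGA shares of these windows were 0.133%, 0.0400%, 0.0262% and 0.0165%. Positions 961 and 962 held 33877 and 30701 stem-loop ends (0.696% and 0.630%), against 719 and 522 CGA ends. Positions 982, 983 and 984 held 0.551%, 0.679% and 1.01% of stem-loop ends, and their CGA counts were 50, 64 and 20. Position 1028 held 41809 stem-loop ends (0.858%), 9.92 times the mean of its neighbours, and 34 CGA ends. These 6 positions, chosen for their excess in the stem-loop library, held 30.004% of its ends from 958 to 1069, and each 10-nt window up to 1047 held between 0.459% and 3.76% of all its ends.

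**Figure D4:**
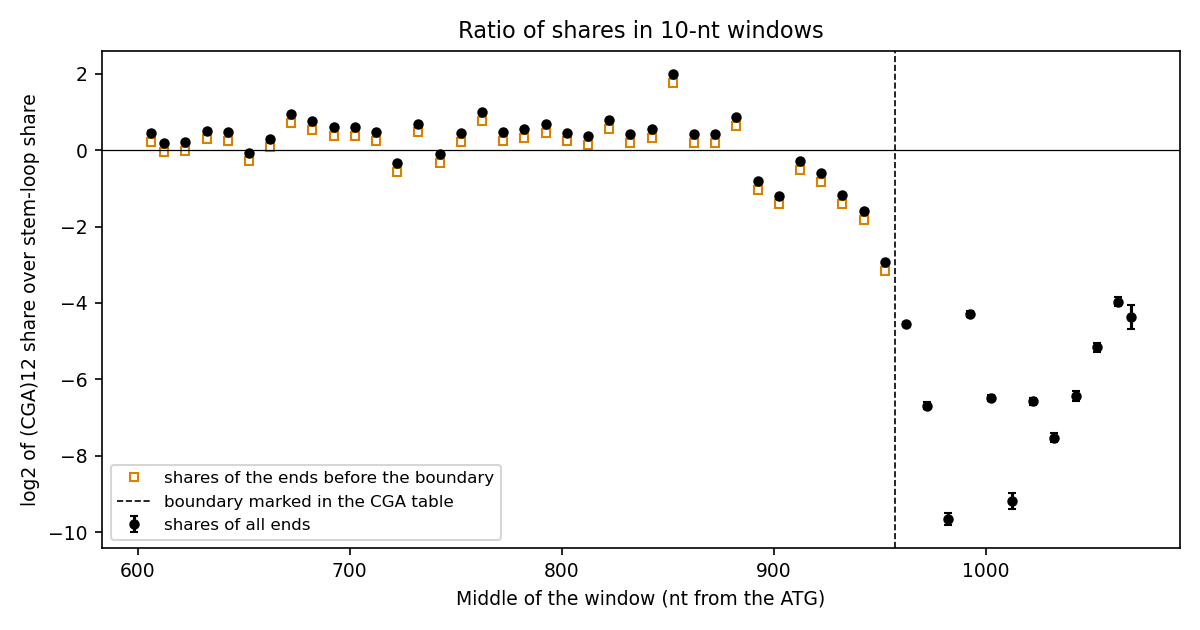
Log2 of the (CGA)12 share over the stem-loop share (vertical) in 10-nt windows (middle of the window in nt from the ATG, horizontal); filled points use shares of all ends with 95% counting intervals, open squares use shares of the ends before 958. The window 848 to 857 is highest at 2.00; windows from 888 on are all below 0 on each scale drawn, and so are those starting at 648, 718 and 738, while the windows starting at 608 and 618 change sign between them.

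Upstream of about position 890 the CGA library held the larger shares in most windows. Of the 12 windows of up to 30 nt before 958, CGA was higher in 10 by shares of all ends and in 7 by shares of the ends before 958, since the windows starting at 606, 718 and 868 changed sign. Because more stem-loop ends lie past 958, the first scale puts every log2 ratio before 958 higher by 0.23 than the second. The window 838 to 867 had the highest ratio: it held 17.2% of CGA ends and 8.83% of stem-loop ends, at log2 0.96 on the first scale and 0.73 on the second. In the window 868 to 897 the shares were 17.2% and 16.4%, at log2 0.07 and -0.16. In steps of 10 nt, CGA was lower on both scales at 648 to 657 (-0.07 of all ends), 718 to 727 (-0.34) and 738 to 747 (-0.10).

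The sign changed within a few nt. Position 889 held 0.445% of CGA ends and 0.290% of stem-loop ends, at log2 0.62, and position 890 held 0.133% and 0.253%, at -0.93. Over all 344 tested positions before 958, CGA was higher at 222 by shares of all ends and at 186 by shares of the ends before 958. Before position 894, CGA was higher at 221 of 280 tested positions by shares of all ends and at 186 by shares of the ends before 958. From 894 to 957 it was lower at 63 of 64 on the first scale and at 64 on the second. The exception was position 914 at log2 0.03. Position 894 was chosen as the dividing point after the values were seen.

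Before the boundary, most tested positions differed by less than 2-fold. By shares of all ends, 39 of the 344 tested positions (11.3%) were higher in the CGA library and 42 (12.2%) were lower. By shares of the ends before 958 these numbers were 18 and 52. Over the whole region 39 of 428 (9.11%) were higher and 125 (29.2%) lower. The lower count includes the positions past the boundary, which were tested mainly through their stem-loop share. By shares of all ends the higher positions lay between 671 and 887, and the lower ones began at 891, so the 2 kinds did not mix. By shares of the ends before 958 they did mix. On that scale position 750 was past 2-fold lower, at log2 -1.02. It lay between positions 731 and 761, which were past 2-fold higher at 1.04 and 1.01.

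The longest unbroken stretch of higher positions was 845 to 858, with 14 positions, and the next, 671 to 674, had 4. The longer stretch was picked from the values, so its 14 positions were at least 2-fold higher in the CGA library by definition. This stretch lies 113 to 100 nt before the boundary. It held 685207 CGA ends, or 9.41% (9.39 to 9.43), against 127150 stem-loop ends, or 2.61% (2.60 to 2.62). The log2 ratio of the sums was 1.85, and 1.62 by shares of the ends before 958, on which scale 12 of the 14 positions stayed past 2-fold. The AAA library held 3.62% of its ends there, and the CGA share was above the AAA share at each of the 14 positions. The stretch began abruptly: position 844 held 0.125% of CGA and 0.132% of stem-loop ends, and position 845 held 0.414% and 0.138%.

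Inside the stretch the ends were unevenly placed. Position 853, in codon 285, held 184592 CGA ends (2.53%), the most of any position in that library, and 41127 stem-loop ends (0.844%), rank 16. The next positions, 854 and 855, held 1.26% and 1.21% of CGA ends but 0.208% and 0.241% of stem-loop ends, at log2 2.60 and 2.33. Their AAA shares were 0.388% and 0.310%. Together with position 856, named here after its value was seen, positions 853 to 856 held 421803 CGA ends (5.79%) and 72899 stem-loop ends, a share 3.87 times as high in the CGA library. The highest ratio was at position 848, log2 2.72, where the libraries held 43867 and 4445 ends.

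The mirror image was a stretch of 12 positions from 893 to 904, 65 to 54 nt before the boundary, all at least 2-fold lower in the CGA library. This stretch was likewise picked from the values, so its direction holds by definition. It held 2.35% of CGA ends and 7.23% of stem-loop ends, at log2 -1.62 by shares of all ends and -1.85 by shares of those before 958. The AAA library held 6.85% there, near the stem-loop share. Positions 894 and 895 ranked 2 and 3 in the stem-loop library, with 86351 and 73871 ends (1.77% and 1.52%). In the CGA library they held 41247 and 32141 ends (0.566% and 0.441%) and ranked 45 and 63.

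**Figure D5:**
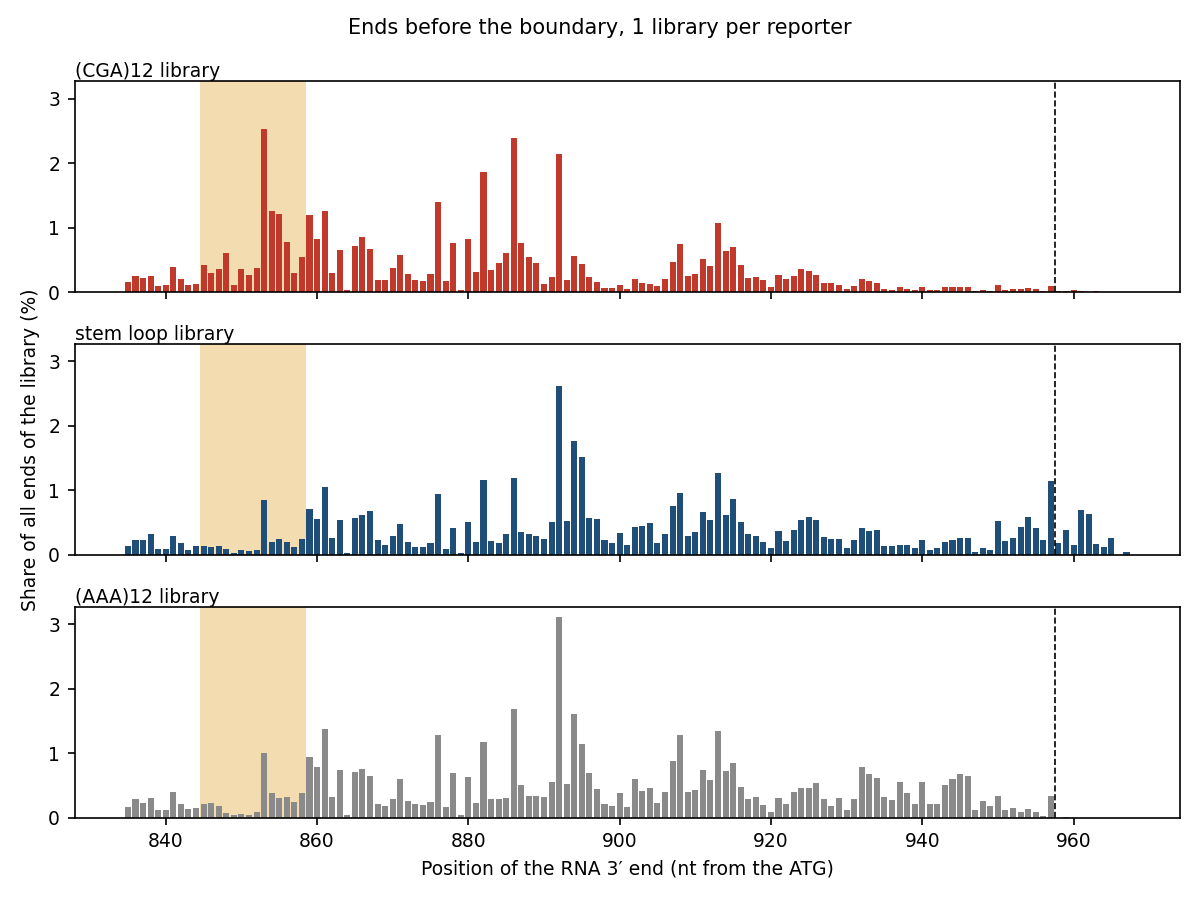
Share of all ends (%, vertical) at positions 835 to 967 (nt from the ATG, horizontal) in the (CGA)12, stem-loop and (AAA)12 libraries; the shaded band is 845 to 858 and the dashed line the boundary at 958. The band holds 9.41%, 2.61% and 3.62% of ends, and the stretch 893 to 904 holds 2.35%, 7.23% and 6.85%.

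The most frequent positions were partly shared, less so when neighbouring positions were summed. The 10 fullest positions held 17.6% of CGA ends (17.54 to 17.59) and 13.8% of stem-loop ends (13.81 to 13.87), and 5 positions were in both lists: 691, 811, 882, 886 and 892. With sums over 3 neighbouring positions the 10 fullest had 2 in common. Position 892, in codon 298, held 127537 stem-loop ends (2.62%, rank 1) and 155350 CGA ends (2.13%, rank 3). Position 886, in codon 296, held 174471 CGA ends (2.40%, rank 2) and 58299 stem-loop ends (1.20%, rank 5). The order of these neighbours was therefore opposite: position 886 was above 892 in the CGA library and below it in the stem-loop library.

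Of the other shared positions, 882 held 1.85% of CGA and 1.16% of stem-loop ends. Position 691 followed with 1.80% and 1.08%, then 811 with 1.39% and 1.01%. The other CGA positions of the 10 were 876, 760, 823 and 799 beside 853, with CGA shares from 1.33% to 1.40% without the latter and stem-loop shares from 0.603% to 0.951%. All 10 lay before 893. Of the 10 fullest positions, 8 in the CGA and 6 in the stem-loop library were in frame 1, the first base of a codon if position 1 is the A of the start codon. Frame 1 makes up 33.2% of the positions before 958. The other stem-loop positions were 894, 895, 913, 957 and 861. Position 913 was similar in both libraries, at 1.07% of CGA and 1.28% of stem-loop ends, and so was position 861, at 1.26% and 1.06%.

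By difference of shares, the 10 positions most in excess in the CGA library were 853, 886, 854, 855, 760, 799, 765, 691, 882 and 823. Together they held 16.4% of CGA ends, 7.26% of stem-loop ends and 9.22% of AAA ends. The rule chose them for this difference, so the sums only describe its size. The 10 most in excess in the stem-loop library, chosen in the same way, held 9.45% of its ends, 1.19% of CGA ends and 3.22% of AAA ends. Of them, 4 lay before the boundary (894, 895, 954 and 957) and 6 past it (961, 962, 982, 983, 984 and 1028).

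The fullest 30 nt moved with these positions. In the CGA library they were 853 to 882, which held 20.7% of CGA and 12.05% of stem-loop ends. In the stem-loop library they were 886 to 915, which held 19.6% of stem-loop and 14.4% of CGA ends. The AAA library held 15.4% and 21.6% of its ends in these windows.

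At fine scale many peaks before the boundary were common to both libraries. A position was called a local peak when it held at least 2 times the mean of the 10 positions on each side, a measure that the broad differences in share do not set. Of the 352 positions from 606 to 957, 36 were local peaks in the CGA library and 38 in the stem-loop library. Of these, 26 were common, which is 72.2% of the CGA peaks and 68.4% of the stem-loop peaks, and all 26 were also peaks in the AAA library. This count depended on single-nucleotide positions: over the whole region 27 peaks were common, of 42 in the CGA and 52 in the stem-loop library, and with sums over 3 neighbouring positions 8 were common, of 30 and 32. The log2 of the count over the local mean had a Pearson correlation of 0.93 between the libraries over these 352 positions, which share a sequence and neighbours and are not independent.

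The 10 local peaks of the CGA library that were not peaks in the stem-loop library included 854 and 886. Position 854 held 2.01 times its local mean in the CGA library, 0.732 times in the stem-loop library and 1.02 times in the AAA library. Position 886 held 3.86, 1.86 and 2.36 times, so its AAA value was also past the limit. The 12 with the opposite pattern included 894, at 3.08 times against 1.19 in the CGA library, and 895, at 2.58 against 0.953. At position 696, also among them, the values were 1.82 times in the CGA and 2.00 times in the stem-loop library, close together on either side of the limit.

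Within the windows before 958, the shape differed most in 3 places. When each window's ends were set to 100% in both libraries, 27.4% of ends would have to move in the window 868 to 897, 25.5% in 928 to 957 and 25.2% in 838 to 867. In the other windows before 958 this share was between 8.33% and 16.1%. From 958 on it was 59.6% in the window 958 to 987, 81.8% in 988 to 1017, 55.5% in 1018 to 1047 and 26.9% in 1048 to 1069. CGA ends were few there, and the same number need not be the same nucleotide.

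Past the boundary, among 112 positions, the libraries had 1 local peak in common, of 6 in the CGA library and 14 in the stem-loop library. It was position 985, with 51 CGA ends. So few peaks cannot tell whether peaks are shared less there than before the boundary. The CGA peaks there rested on few ends. Position 997 held 1508 CGA ends, 24.9 times its local mean, position 999 held 794 and position 1019 held 404.

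The share of ends by reading frame was similar in both libraries. Frame 1 held 42.1% of the CGA ends from 606 to 957 (42.10 to 42.17) and 40.7% of the stem-loop ends (40.66 to 40.75), and the AAA share was 40.7%. Frame 2 held 27.5% and 26.4%, and frame 3 held 30.4% and 32.9%, of the CGA and stem-loop ends. In the 11 windows up to 927, the CGA frame 1 share minus the stem-loop share lay between -3.41 and 2.12 points. In the window 928 to 957 it was 7.74 points, with 38.0% of CGA and 30.2% of stem-loop ends in frame 1. Part of this gap rests on position 957, in frame 3. It held 55825 of the window's 395786 stem-loop ends and 7129 of its 156375 CGA ends. Past the boundary frame 1 held 36.3% in both libraries, and frame 2 held 28.7% of CGA and 35.5% of stem-loop ends. Of the 5712 CGA ends in frame 1 there, 1508 were at position 997, so the equal frame 1 shares depend on that position.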

How the data were processed

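RNA 3' ends were sequenced from total RNA of yeast, 1 library per reporter. Per the labels' protocols, an adenylated DNA oligonucleotide was ligated to the RNA and cDNA was amplified from a primer at position 585 of PGK1. Bedtools, Novoalign, SAMtools 1.13 and cutadapt 1.12 are named in the submitters' processing notes; no settings, reference or build are stated there. The authors deposited raw read counts per position, and 4 cells of other units beside position 958 of the CGA table (a sum, a fraction and percents). Tables were tied to samples by the sheet names in the descriptions.

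From these counts, shares of each table's total with 95% Wilson intervals, percentiles, windows counted from position 958, log2 ratios (0.5 added to single-position counts), local peaks and frames were computed with Python 3.11.15, numpy 2.4.6 and pandas 2.3.3, after the functions were tested on simulated data. Local peaks used neighbours inside the region. Intervals of ratios and of effective numbers used the delta method. Depth was 7282449 CGA and 4870458 stem-loop ends. Named positions were the 10 fullest per library, the 10 largest differences each way, the ends of the region, both sides of the boundary, and the fullest 30-nt windows. Positions and lists were chosen with earlier results of these data known. Alternatives covered low counts, the denominator, window sizes, fold limits and neighbour sums. Reporter sequences were not used here.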

Additional observations from a re-analysis of the deposited data

Results flagged for a closer look

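Ends outside the region described were flagged because they exceed the 3 counts that a count of 0 allows. After position 1069 the stem-loop table listed 12148 ends (0.249%) at 353 positions up to 1481, with at most 193 at 1 position (1188). The CGA table listed 2090 (0.0287%) at 209 positions up to 1293, with at most 102 at position 1074. Between the primer at 585 and position 606 there were 17 stem-loop and 25 CGA ends. At or before the primer position there were 65 stem-loop and 22 CGA ends, which the protocol does not sample. Groups of 1 library gave no outlier check.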

How the results depend on the processing

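Under the alternatives 83 values were recomputed: 40 lay inside the counting error of the main value (for counts, within 1.5 times it), 43 did not, and 0 had the opposite sign. Only the last-window log2 ratio can take either sign, so for the other values that 0 was fixed in advance. The windows and positions that changed sign with the denominator, given above, are not in this count. The intervals are narrow, so small moves count; the single library per reporter, not depth, limits the values. No paired analysis was possible because each reporter had 1 library, which also left no replicate to omit. Setting positions with fewer than 10 ends to 0 moved none of the 19 values tried. Except where the setting itself shows it, the cause was not tested. Pairs are given as CGA and stem loop. Without the most frequent position the medians were 823 and 874, the effective numbers of positions 211.0 and 286.4, the last 30 nt before the boundary 2.20% and 8.34%, the ends from the boundary on 0.222% and 15.1%, the 10 fullest positions 16.7% and 12.6%, frame 1 40.6% and 38.4%, and the distance between profiles 32.4%. With only positions before the boundary, the stem-loop median was 859, the effective numbers 205.0 and 223.3, the 10 fullest positions 17.61% and 16.3%, the stem-loop frame 1 share 40.71% and the distance 23.7%. The positions past 2-fold were then 18 higher and 52 lower, because the whole scale shifts by 0.23 and positions past the boundary are gone. Sums over 3 neighbours gave 20.3% and 14.6% for the distinct positions under the 10 fullest sums, 2 shared ones, a distance of 30.6%, and 30 CGA, 32 stem-loop and 8 common local peaks. The last-window log2 ratio was -2.15 at 25 nt, -1.58 at 35 nt and -2.15 by ends before the boundary; the shares were 1.55% and 6.87% at 25 nt, and 3.51% and 10.5% at 35 nt. Of the 428 tested positions, 100 were higher and 147 lower at 1.5-fold, and 9 were higher and 106 lower at 3-fold. The 5 fullest positions held 10.7% and 8.38% with 2 shared, and the 20 fullest 29.1% and 22.3% with 12 shared.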
